A study of Homo sapiens with 9 samples.

Results

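HEK293T cells that carried LAV-BPIFB4, the longevity-associated variant of BPIFB4, were compared with HEK293T cells that carried an empty plasmid. HEK293T is a human embryonic kidney cell line that expresses a viral T antigen. The comparison rests on 6 of the 9 bead arrays of the study, 3 arrays with LAV-BPIFB4 and 3 with the empty plasmid, chosen by their labels, and the 3 arrays of cells with WT-BPIFB4, the wild-type form, entered the fit only. In the BPIFB4 groups the coding sequence was in the pRK5 vector. All cells received their plasmid with the lipid reagent Lipofectamine, were deprived of serum from 24 h after transfection for 18 h, and gave total RNA through a column kit that keeps small RNA. No cell without a plasmid is in the comparison, so what transfection and serum withdrawal do on their own is shared by both groups. The cells were transfected in triplicate, but the labels do not say whether a triplicate means separate cultures, so the p-values here may reflect technical spread alone. Within a group the arrays lie side by side on 1 chip, so the effects of group and of chip position cannot be told apart.

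BPIFB4 is one of the BPI fold proteins, which bind lipids and are for the most part secreted, and the study concerns its part in blood vessel function. Cells that meet unfolded protein release the transcription factor HSF1 from its chaperones, and HSF1 then binds heat shock elements, inverted repeats of GAA, in the promoters of HSP70, HSP40 and related genes. HSPA6 and HSPA1A are stress-inducible members of the HSP70 family, HSPA1A with basal expression in many cells, whereas HSPA8 is constitutive.

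The median signal of the 6 arrays lay between 93.1 and 139, and 18940 to 20658 of 47310 probes per array had a detection p-value under 0.05. Across probes, arrays correlated at 0.980 to 0.985 within the empty group, at 0.984 to 0.988 within the LAV-BPIFB4 group and at 0.967 to 0.977 between the groups. The single BPIFB4 probe stayed at background, with signals of 98.8, 98.5 and 83.8 with the empty plasmid and of 88.5, 99.4 and 110 with LAV-BPIFB4, so the transgene was not followed. Of 20 embryonic kidney and neural-like genes known from HEK293 that are on the array, 15 were detected on at least 3 of the 6 arrays. Of 10 endothelial markers 8 were detected on no array, PECAM1 and CDH5 among them, and only ESAM was detected on at least 3. The summed marker signal ranged from 861 to 1128 with the empty plasmid and from 1101 to 1228 with LAV-BPIFB4 for endothelial genes, and from 889 to 1248 and from 1429 to 1942 for blood cell genes, where CD68 rose.

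Probes were kept when detected on at least 3 of these 6 arrays, which left 19279 probes, and each of 11257 genes was represented by its brightest kept probe. Values are log2 intensities after background correction and quantile normalization, and a gene was called when its limma adjusted p was under 0.05. LAV-BPIFB4 was called different from the empty plasmid for 1650 probes (8.56%), 778 higher (4.04%) and 872 lower (4.52%), and for 1089 genes (9.67%), of which 480 rose (4.26%) and 609 fell (5.41%). Without adjustment 4910 probes had a p under 0.05. Large changes were more often rises, with 94 genes up more than 2-fold (0.835%) and 36 down more than 2-fold (0.32%). This did not hold for protein-coding genes. Of 10633 of them 33 had a log2 change above 1 and 34 below -1, called or not, and of 143 snoRNA genes 30 and 1. The 3 LAV-BPIFB4 values did not overlap the 3 empty values for 35.2% of all genes tested, 16.3% higher and 18.9% lower. The balance of directions depends on the scaling. When arrays were scaled to equal medians instead of equal distributions, 210 probes were called up and 40 down, so that 84% of the calls were rises where 47.2% had been. Under that scaling the median change of all genes was 0.093, and it was 0.22 in the uppermost level quartile of genes.

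**Figure D1:**
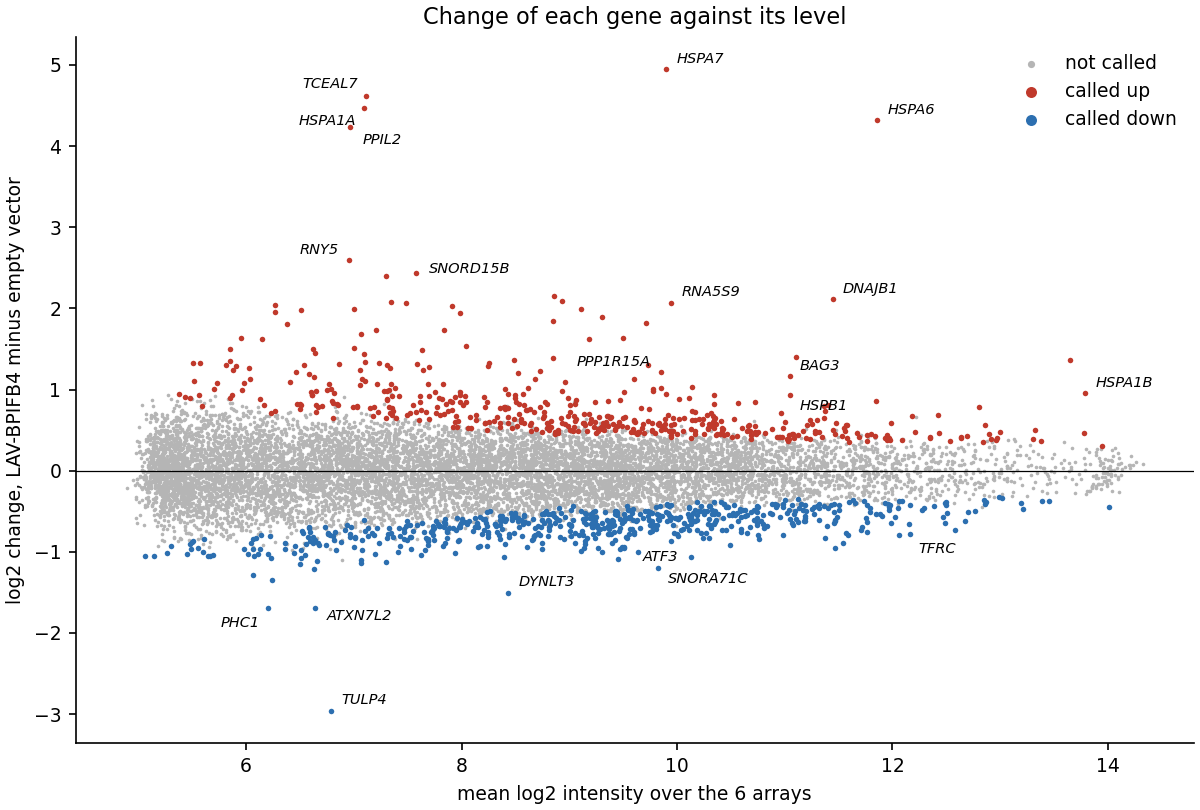
Log2 change (LAV-BPIFB4 minus empty plasmid, vertical axis) of each of the genes tested against its mean log2 intensity over the 6 arrays (horizontal axis), coloured by the limma call. HSPA7, TCEAL7, HSPA1A, HSPA6 and PPIL2 lie above 4, apart from all other genes, and TULP4 is the lowest at -2.96.

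Transcripts of HSPA6, HSPA7 and HSPA1A were among the 5 with the highest rises. HSPA6 had log2 intensities of 9.69, 9.21 and 10.20 with the empty plasmid and of 14.02, 14.05 and 13.99 with LAV-BPIFB4. The groups lie far apart, a rise of 20-fold (log2 change 4.32 ± 0.16 SE, limma adjusted p = 1.03e-12), and a separate HSPA6 probe rose by 4.99. HSPA7, a transcribed pseudogene nearly identical to HSPA6, went from 7.70, 6.88 and 7.68 to 12.72, 12.08 and 12.32, or 30.9-fold (limma adjusted p = 1.63e-11); the probes may not separate the copies. HSPA1A, whose product refolds denatured protein, was detected on 1 of 3 empty arrays at 5.33, 4.58 and 4.67 and reached 9.57, 9.18 and 9.23. Its log2 change of 4.47 ± 0.21 ranged from 2.56 to 4.67 over the alternative settings of the processing. The probe of HSPA1B, a gene almost identical to HSPA1A, was already at 13.14, 13.68 and 13.10 with the empty plasmid and reached 14.23, 14.27 and 14.28, a rise of 0.95 ± 0.12. The highest mean level of any gene was 14.33, and whether saturation caps the rises of HSPA1B and HSPA6 was not tested. These are bulk values, so more RNA per cell and a larger share of responding cells cannot be told apart.

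The promoters of HSPA6, HSPA1A and HSPA1B are shown with those of 3 other chaperone genes, of which 1 rose, 1 was not called and 1 fell, because they hold heat shock units. Not shown are the risers DNAJB1, BAG3 and STIP1, which hold no pair of units in 250 bases, and HSPB1, which holds none in the last 150. Each line gives the 150 bases before the gene's start, 5′ to 3′ on the gene's strand, from RefSeq on GRCh38.p14, and capitals mark a pair of inverted units, GAANNTTC or TTCNNGAA, searched on both strands.
HSPA6, chr1:161524390-161524539, plus strand: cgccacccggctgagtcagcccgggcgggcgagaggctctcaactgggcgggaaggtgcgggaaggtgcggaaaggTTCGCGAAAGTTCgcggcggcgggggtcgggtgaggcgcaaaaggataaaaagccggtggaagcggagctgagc
HSPA1A, chr6:31815393-31815542, plus strand: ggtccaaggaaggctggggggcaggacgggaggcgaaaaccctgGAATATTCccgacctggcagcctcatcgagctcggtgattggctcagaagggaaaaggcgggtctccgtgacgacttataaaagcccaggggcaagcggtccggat
HSPA1B, chr6:31827588-31827737, plus strand: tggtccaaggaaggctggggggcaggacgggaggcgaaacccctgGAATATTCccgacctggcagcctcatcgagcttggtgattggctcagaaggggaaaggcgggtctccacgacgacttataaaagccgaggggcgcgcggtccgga
SERPINH1, chr11:75562103-75562252, plus strand: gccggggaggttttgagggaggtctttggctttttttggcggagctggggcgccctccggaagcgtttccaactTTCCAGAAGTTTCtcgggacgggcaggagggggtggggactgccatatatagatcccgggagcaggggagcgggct
CHORDC1, chr11:90223050-90223199, minus strand: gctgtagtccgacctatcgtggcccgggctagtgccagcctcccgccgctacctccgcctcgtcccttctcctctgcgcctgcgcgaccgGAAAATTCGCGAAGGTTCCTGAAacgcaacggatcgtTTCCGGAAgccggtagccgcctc
HSPA8, chr11:123062137-123062286, minus strand: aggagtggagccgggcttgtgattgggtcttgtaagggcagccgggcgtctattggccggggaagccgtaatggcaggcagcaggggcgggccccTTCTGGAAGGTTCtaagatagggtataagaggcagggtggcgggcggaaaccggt
The stretch in capitals of HSPA6 holds 3 consecutive units, a heat shock element that contains both paired forms and was counted on either strand. Of 27305 promoters, taken over the 250 bases before the gene's start, 11.7% held a pair and 0.439% held 3 units. Of the promoters of 9060 tested genes, 28 held 3 units (0.309%), and 4 of those rose and 1 fell, where 4.26% of all genes rose and 5.41% fell. HSPA1A and HSPA1B hold a pair only, as did 8.66% of tested promoters, 12.2% of those of genes that rose and 10.2% of those of genes that fell. The risers were HSPA6, SERPINH1 and, by 0.45 and 0.38, MRPL48 and MRPL51 of the mitochondrial ribosome, and the faller was HSPA8. SERPINH1, the collagen chaperone HSP47, went from 7.90, 6.83 and 7.84 to 8.71, 8.32 and 8.33 (log2 change 0.93 ± 0.23, limma adjusted p = 0.0198). CHORDC1, an HSP90 co-chaperone with 3 matches to the form of 3 units, differed by 0.50 ± 0.18 and was not called (limma adjusted p = 0.0823). HSPA8 fell by 0.37 ± 0.11 (limma adjusted p = 0.0489) from 13.75, 13.52 and 13.63 to 13.31, 13.25 and 13.24. The call of HSPA8 was lost in 12 of 20 alternative settings, that of SERPINH1 in 6, that of MRPL48 in 12 and that of MRPL51 in 13. HSPA8, SERPINH1, CHORDC1, MRPL48 and MRPL51 are named here after their values were seen.

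Among the helpers of HSP70, the transcripts that rose were few and sizeable. DNAJB1, the HSP40 that delivers clients to HSP70, went from 10.17, 10.68 and 10.31 to 12.62, 12.35 and 12.52, a rise of 4.32-fold (limma adjusted p = 1.95e-08). It was the only riser among 35 J-domain genes, of which DNAJC24 fell by 0.69 and 33 were not called. BAG3, which couples HSP70 to autophagy, rose by 1.17 ± 0.16, from 10.25, 10.67 and 10.48 to 11.80, 11.50 and 11.59, and was the only called member of 6 BAG genes. The small heat shock protein gene HSPB1 rose by 0.93 ± 0.10, from 10.54, 10.56 and 10.63 to 11.46, 11.61 and 11.46. Neither group of DNAJB1, BAG3 or HSPB1 overlapped the other. STIP1, the adaptor that hands clients from HSP70 to HSP90, rose by 0.65 ± 0.11 and was the only called gene among 14 of the HSP90 machinery. HSP90AA1 differed by -0.12 ± 0.09 and HSP90AB1 by 0.29 ± 0.11, neither called, and HSF1 itself by 0.25 ± 0.25.

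Of 10 HSP70 and HSP110 genes tested 4 rose and 1 fell, where 4.26% of all genes rose and 5.41% fell. The median change was 0.13 against -0.0038 for all genes. The 4 risers are the near-identical genes HSPA6 and HSPA7 and the near-identical genes HSPA1A and HSPA1B, so they may not be separate observations. Of 9 subunits of CCT, the chaperonin that folds actin and tubulin, TCP1 fell by 0.61 ± 0.14, although its other probes read -0.04 and 0.24. The median of the CCT subunits was -0.22, and 0.08 with median scaling. Of 13 mitochondrial chaperones and proteases GRPEL2 fell by 0.46, and of 26 ER chaperones and degradation factors EDEM1 fell by 0.57. Of 40 proteasome genes 5 rose and none fell, beside 4.26% up and 5.41% down among all genes. The assembly factors PSMG3 and PSMG4 rose by 0.69 ± 0.15 and 0.62 ± 0.18, the immunoproteasome subunit PSMB10 by 0.64 ± 0.15 and the lid subunit PSMD8 by 0.48 ± 0.13. No proteasome gene was called with median scaling, and without LAV-BPIFB4 replicates 1, 2 and 3 the risers were 1, 2 and 1, and without empty replicate 3 they were 2, and without empty replicate 1 they were 3. The ubiquitin gene UBB read 0.28 ± 0.09 on its brightest probe, not called, and 0.42, called, on another.

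**Figure D2:**
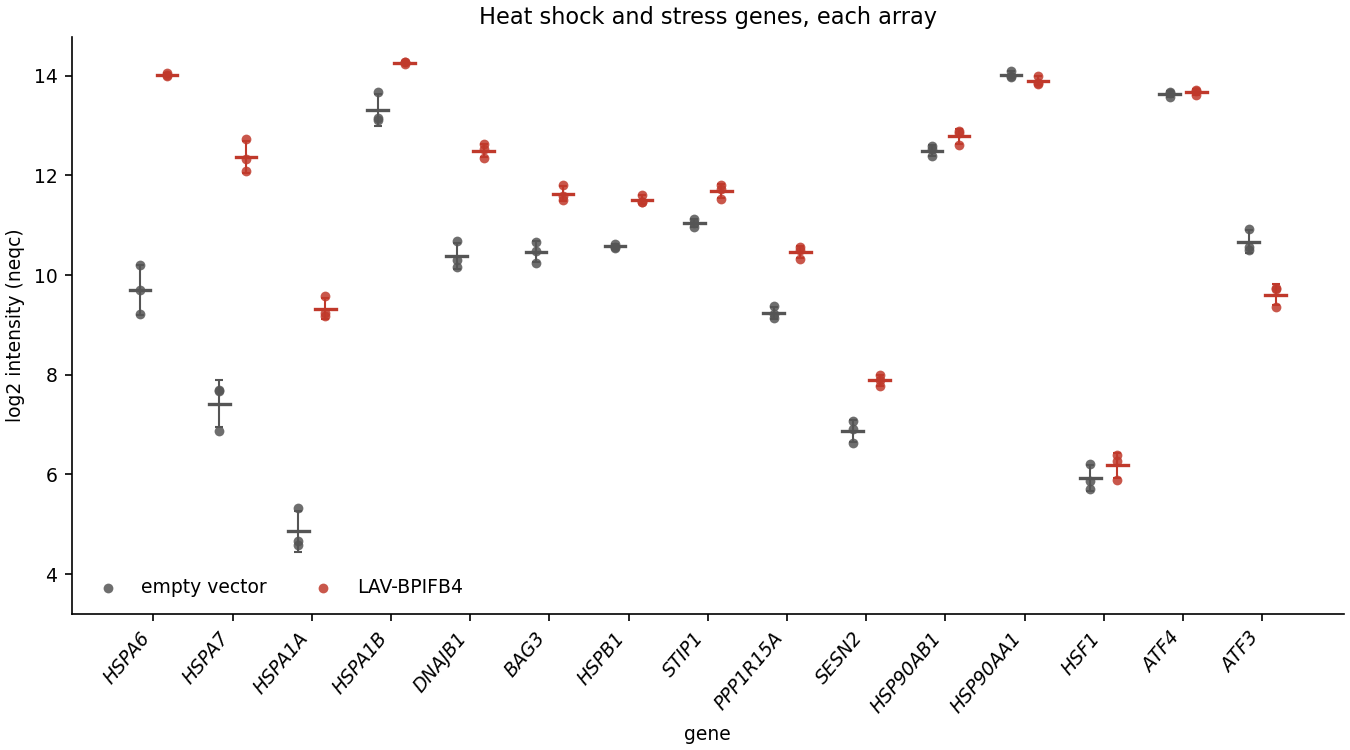
Log2 intensity (vertical axis) of heat shock and stress genes on each of the 3 empty plasmid and 3 LAV-BPIFB4 arrays (points), with the mean (bar) and SD (whiskers). HSPA6 goes from about 9.70 to 14.02 on average, HSP90AA1, HSF1 and ATF4 overlap between groups, and ATF3 is lower with LAV-BPIFB4.

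TCEAL7 and PPIL2 also rose, from levels at or near background, where the size of the change rests on the processing. TCEAL7, an X-linked gene of the elongation factor A-like family, was detected on 1 of 3 empty arrays at 5.14, 4.64 and 4.63 and reached 9.50, 9.41 and 9.36, a log2 change of 4.62 ± 0.18 (limma adjusted p = 1.03e-12). It ranged from 2.66 to 4.75 over the alternatives, whereas HSPA6 stayed at 4.07 to 4.55. Within the 10 TCEAL and BEX genes tested, TCEAL9 and BEX2 rose by 0.59 ± 0.11 and 0.45 ± 0.11, with TCEAL9's other probe at 0.05. PPIL2, a nuclear cyclophilin with a ubiquitin ligase domain, went from 5.24, 4.66 and 4.66 to 9.69, 8.33 and 9.23 on its brightest probe, again detected on 1 of 3 empty arrays. Its log2 change of 4.23 ± 0.29 ranged from 2.36 to 4.60 over the alternatives. Its other kept probe read -0.37 ± 0.28, so the probes of this gene disagree. Of the other 16 cyclophilins NKTR fell by 0.50 ± 0.14 and none rose.

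Some transcripts were detected in a single group. Of 33 genes detected on all LAV-BPIFB4 arrays and on no empty array, 4 were called, where 9.67% of all genes were called in either direction. These genes, and the 54 below, pass the filter only through the group where they are high. Their direction is therefore set by the selection, and their bounds and p-values are descriptive. CT45A3, a cancer-testis gene in a cluster of near-identical copies, was at least 2.01-fold higher (limma adjusted p = 0.00869). DNAAF19, an axonemal dynein assembly factor, was at least 1.87-fold higher, the immediate early gene ARC at least 1.68-fold and the snoRNA SNORD12C at least 1.64-fold. Of 54 genes detected on all empty arrays and on no LAV-BPIFB4 array, 6 were called, TSPY26P at least 1.68-fold lower and LYSMD3 at least 1.65-fold lower among them. These bounds set the detected mean against the dimmest signal above background.

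In the eIF2alpha and ATF4 stress pathway few genes were called, and these went in both directions. PPP1R15A (GADD34), which brings a phosphatase to eIF2alpha and so restores translation, went from 9.22, 9.37 and 9.13 to 10.50, 10.32 and 10.56, a rise of 1.22 ± 0.12 (limma adjusted p = 5.38e-06). It was the only called gene of 13 eIF2alpha kinases and phosphatase regulators. ATF3, a transcription factor that stress usually induces, fell by 1.06 ± 0.15, from 10.51, 10.93 and 10.56 to 9.36, 9.74 and 9.71 (limma adjusted p = 0.000336). Of 29 ATF4 pathway genes 2 rose and 2 fell, where 4.26% of all genes rose and 5.41% fell, so the counts show no shift of the pathway. SESN2, a sestrin that restrains mTOR complex 1, rose by 1.02 ± 0.19, and TRIB3, a pseudokinase that dampens ATF4, by 0.64 ± 0.17 with overlapping groups. Besides ATF3, the glutamine carrier gene SLC38A2 fell by 0.87 ± 0.16, from 10.38, 10.37 and 10.39 to 9.47, 9.60 and 9.47. ATF4 differed by 0.04 ± 0.09 on its brightest probe, while another ATF4 probe read 1.11 and was called, and a further one read 0.03 and was not. Of 18 cytosolic tRNA synthetases, which ATF4 commonly induces, none rose and TARS1 fell by 0.51 ± 0.13.

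Falls among growth signalling genes lay on both the activating and the restraining side. MTOR fell by 0.49 ± 0.14 and its substrate kinase RPS6KB1 by 0.50 ± 0.15. DEPTOR, an inhibitor of mTOR, fell by 1.21 ± 0.29, from 7.07, 7.61 and 7.04 to 5.25, 6.52 and 6.31, and its other probe read -0.43 without a call. In all, 2 of 29 mTOR genes rose and 4 fell, where 4.26% of all genes rose and 5.41% fell. With median scaling 1 of the list rose and 1 fell, and its median went from -0.00 to 0.11. SESN1, a sestrin like SESN2, fell by 0.95 ± 0.16 (limma adjusted p = 0.00178). Of 26 immediate early genes 3 rose and 1 fell, where 4.26% of all genes rose and 5.41% fell. IER5 rose by 1.02 ± 0.14, from 9.31, 9.36 and 9.36 to 10.59, 10.35 and 10.13, and JUN by 0.53 ± 0.11, whereas ATF3 fell. The remaining riser, ARC, passed the filter only through the group where it is high, so its direction was set by the selection.

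Small non-coding RNAs rose in large number. They comprise the snRNAs of the spliceosome, the C/D and H/ACA box snoRNAs that guide methylation and pseudouridylation of ribosomal RNA, the Cajal body RNAs (scaRNAs) that do so for snRNAs, and products of RNA polymerase III such as 5S, Y and vault RNA. Of 13 genes annotated as snRNA 12 rose, with a median change of 1.63, and of 14 scaRNAs 11 rose, with a median of 1.41. Of 70 C/D box snoRNAs 28 rose and none fell, with a median of 0.63, and of 72 H/ACA snoRNAs 28 rose and 1 fell, with a median of 0.66. In each of these classes the share that rose stands against 4.26% of all genes and 3.47% of protein-coding genes. Of 32 microRNA genes none was called, and their median was 0.19.

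RNU4ATAC of the minor spliceosome had the highest change of the snRNAs. It went from 6.18, 5.68 and 6.45 to 9.31, 8.14 and 8.05, a rise of 5.26-fold (limma adjusted p = 5.84e-05), and RNU6ATAC and RNU11 rose by 1.96 ± 0.26 and 1.63 ± 0.29. Of the U1 genes, which are near-identical copies, RNU1-3 went from 7.89, 7.68 and 8.08 to 10.45, 9.73 and 9.75, or 4.27-fold, and RNVU1-7 rose 4.43-fold. RNU5A-1, at 0.69 ± 0.30, was the snRNA that was not called. RN7SK, which holds the elongation kinase P-TEFb inactive, rose by 0.90 ± 0.15, from 8.54, 8.48 and 8.60 to 9.50, 9.33 and 9.47. Among snoRNAs, SNORD15B went from 6.05, 6.71 and 6.32 to 9.16, 8.34 and 8.89, or 5.41-fold (limma adjusted p = 5.83e-07), and SNORD83B rose 3.6-fold. SNORA80E rose 4.24-fold, from 6.50, 6.13 and 6.28 to 9.34, 7.58 and 8.24. The single faller was SNORA71C, from 10.85, 9.96 and 10.45 to 9.42, 8.84 and 9.40 (log2 change -1.20 ± 0.25). SCARNA23, SCARNA14 and SCARNA8 rose by 2.06 ± 0.42, 2.03 ± 0.32 and 1.99 ± 0.39.

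Of the 4 Y RNAs, which bind the Ro protein, 3 rose. RNY5 went from 6.08, 5.15 and 5.73 to 9.41, 7.73 and 7.61 (log2 change 2.59 ± 0.38), RNY4 rose by 1.99 ± 0.36 and RNY1 by 1.94 ± 0.36, while RNY3 differed by 0.23 ± 0.20. The vault RNA VTRNA1-1 rose by 2.04 ± 0.29, and RPPH1, the RNA of RNase P, by 1.34 ± 0.25. The brain-type RNA polymerase III transcript BCYRN1, named after its value was seen, rose by 1.41 ± 0.19. Ribosomal RNAs differed among themselves. RNA5S9, a 5S gene, went from 8.83, 8.79 and 9.11 to 11.43, 10.75 and 10.75, or 4.2-fold (limma adjusted p = 8.57e-07), whereas RNA28SN5, a product of RNA polymerase I, fell by 0.44 ± 0.09 and RNA18SN5 read -0.31 ± 0.12 without a call. RN7SL1, the RNA of the signal recognition particle, read -0.17 ± 0.12 and RMRP 0.67 ± 0.38, neither called.

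**Figure D3:**
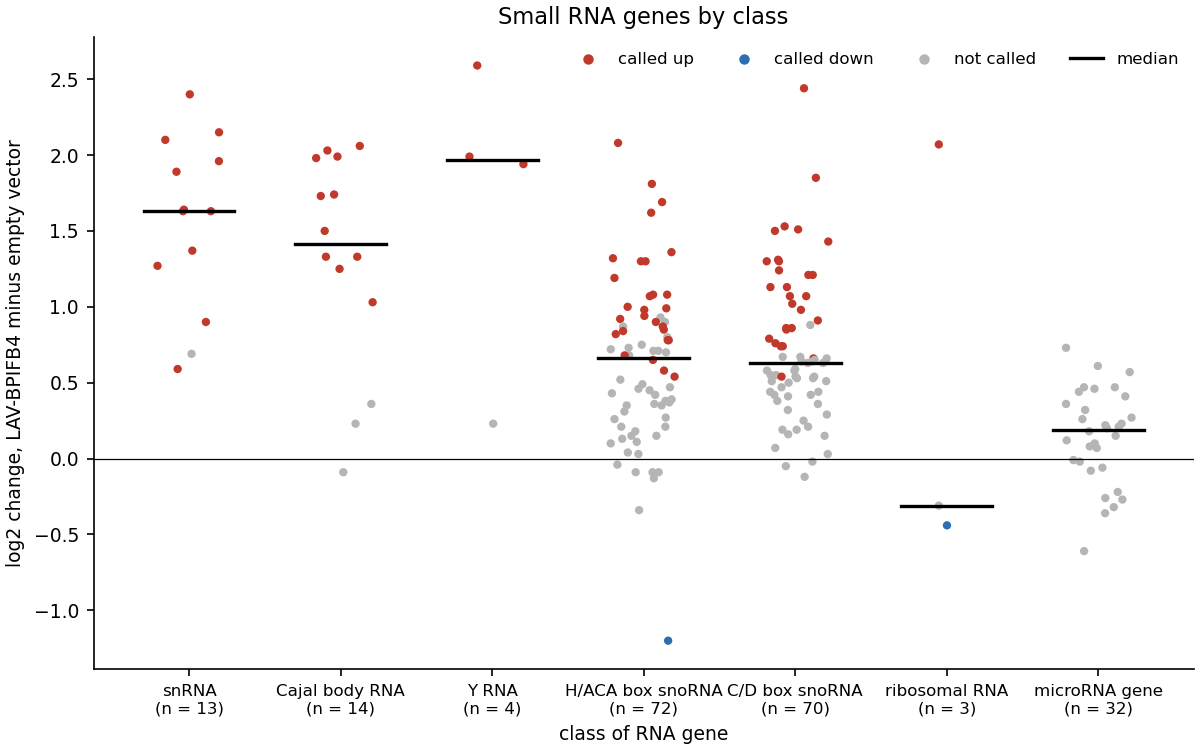
Log2 change (LAV-BPIFB4 minus empty plasmid, vertical axis) of each RNA gene, by class (horizontal axis, with the number tested), with class medians as bars and colours for the limma call. The snRNA median lies at 1.63 and that of the Cajal body RNAs at 1.41, the snoRNA medians lie at 0.66 and 0.63, and no microRNA gene was called.

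Taken as 1 set, the small RNAs lay higher on the LAV-BPIFB4 arrays, but the classes did not move alike on every array of the study. On WT-BPIFB4 replicate 1 the snRNA median was 8.98, above the empty arrays at 7.82, 7.45 and 8.08. The Cajal body RNA median there was 6.45, within the range of the empty arrays at 7.07, 5.85 and 6.74. The set has 181 genes, with the 3 ribosomal RNA genes and without the microRNA genes and RN7SL1. Its median deviation from the mean of all 9 arrays was -0.34, -0.49 and -0.42 on the empty arrays and 0.54, 0.22 and 0.32 on the LAV-BPIFB4 arrays. The groups do not overlap, and LAV-BPIFB4 replicate 1 is the highest. Without that replicate 16 C/D box, 7 H/ACA box and 5 scaRNA genes were called up, with medians of 0.60, 0.57 and 1.46, and 10 snRNAs. Without an intensity trend in the variance 18 C/D box snoRNA, 11 H/ACA box snoRNA, 2 Cajal body RNA (scaRNA) and 9 snRNA genes rose, and with median scaling 17, 12, 11 and 12. The deposited values gave these classes medians of 0.32, 0.26, 0.91 and 0.76. The labelling kit starts from oligo(dT), and most mature small RNAs lack a poly(A) tail. Whether the probes read mature RNA, precursors or tailed forms was not tested.

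Many of the listed transcripts that carry snoRNAs in their introns rose as well. Of 17 host genes tested 10 rose and none fell, where 4.26% of all genes rose and 5.41% fell. The median change of these host genes was 0.53. Only 1 of them is protein-coding, so the list does not speak for snoRNA hosts that code for protein. SNHG17 went from 9.97, 9.83 and 9.83 to 10.85, 10.81 and 10.78, a rise of 0.94 ± 0.11 (limma adjusted p = 5.97e-05), and SNHG9 rose by 1.13 ± 0.19. ZFAS1, which hosts C/D box snoRNAs, rose by 0.81 ± 0.11, from 10.79, 11.19 and 11.01 to 11.84, 11.81 and 11.77. Their median deviation was -0.28, -0.27 and -0.24 on the empty arrays and 0.23, 0.22 and 0.24 on the LAV-BPIFB4 arrays. The number called was 5 with median scaling, 6 without any LAV-BPIFB4 replicate, and 7 or 8 without an empty replicate. Protein genes of the snRNPs and the core spliceosome included 6 rises and 2 falls among 51 tested, where 4.26% of all genes rose and 5.41% fell. With median scaling 3 of them rose and none fell, and over the alternatives the rises numbered 0 to 8. PRPF19, a ubiquitin ligase of the spliceosome, rose by 0.82 ± 0.15 and SF3B1 fell by 0.57 ± 0.15, with its other probe at -0.06. Of 37 genes of the Integrator complex, which cuts snRNA precursors, and of RNA polymerase III none rose. INTS8 and INTS13 fell by 1.07 ± 0.22 and 0.78 ± 0.15, where 5.41% of all genes fell. Of 42 hnRNP and SR protein genes SRSF1 and HNRNPH1 fell, by 0.52 ± 0.14 and 0.49 ± 0.11. Neither of these 2 lists had a fall with median scaling, and their medians went from -0.07 to 0.07 and from -0.17 to 0.03.

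Genes of mitosis were lower with LAV-BPIFB4. Of 43 genes of the spindle, kinetochore and checkpoint 18 fell and none rose, against 5.41% down among all genes, and the median change was -0.41. NCAPG, a condensin subunit, went from 11.46, 11.35 and 11.44 to 10.80, 10.72 and 10.72 (log2 change -0.67 ± 0.13, limma adjusted p = 0.00475). TOP2A, which untangles sister chromatids, went from 12.42, 12.49 and 12.52 to 11.85, 11.91 and 11.71. SGO2, a guardian of centromere cohesion, and ANLN, the scaffold of the cleavage furrow, fell by 0.74 ± 0.19 and 0.74 ± 0.20. In 27 of the 43 genes all LAV-BPIFB4 values lay below all empty values, where 18.9% of all genes did so. The median stayed below 0 in all 20 alternatives, at -0.46 to -0.23, but the number called did not hold. None fell with median scaling or without an intensity trend, 6 and 5 fell without empty replicates 1 and 3, and 8, 3 and 3 without LAV-BPIFB4 replicates 1, 2 and 3.

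Promoters of mitosis genes often hold the cell cycle homology region (CHR), TTTGAA, through which the DREAM complex represses them in resting cells. The promoters of 3 fallers are shown because they hold this element. Not shown are the fallers SGO2, BUB1, NDC80 and CENPE, which hold none in 250 bases. TOP2A, with none in the last 150, and KIF11, with 1 there, are not shown either. BUB1, NDC80, CENPE and KIF11 are named here after their values were seen. Each line again gives the 150 bases before the gene's start on GRCh38.p14, with the element, searched on both strands, in capitals.
NCAPG, chr4:17810829-17810978, plus strand: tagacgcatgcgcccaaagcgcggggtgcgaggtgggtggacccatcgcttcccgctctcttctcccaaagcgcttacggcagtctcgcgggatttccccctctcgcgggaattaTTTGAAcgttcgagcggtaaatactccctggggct
ANLN, chr7:36389712-36389861, plus strand: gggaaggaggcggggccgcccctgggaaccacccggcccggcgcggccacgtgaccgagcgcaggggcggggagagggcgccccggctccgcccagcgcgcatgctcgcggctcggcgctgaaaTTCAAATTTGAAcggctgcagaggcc
BUB1B, chr15:40160919-40161068, plus strand: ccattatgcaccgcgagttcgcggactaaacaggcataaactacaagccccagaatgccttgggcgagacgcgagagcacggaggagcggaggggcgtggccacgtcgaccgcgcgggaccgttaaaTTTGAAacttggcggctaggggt
Over 250 bases, TTTGAA was found in 17 of 38 mitosis promoters (44.7%), in 8.49% of the 9060 tested promoters, in 11.8% of those of genes that fell and in 8.51% of those of genes that rose. Within the mitosis list 9 of 16 promoters of fallers and 8 of 22 of uncalled genes held it. BUB1B, a spindle checkpoint kinase named for its promoter after its value was seen, fell by 0.65 ± 0.20, with all LAV-BPIFB4 values below all empty values, and its call was lost in 9 of 20 alternative settings.

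Other cell cycle genes were called in both directions. Of 45 DNA replication genes 2 rose and 3 fell, near the 4.26% up and 5.41% down of all genes, so these counts show no shift. The licensing factor CDT1 rose by 0.71 ± 0.12, from 9.85, 10.20 and 9.83 to 10.67, 10.67 and 10.66 (limma adjusted p = 0.00234). POLA1, the catalytic subunit of DNA polymerase alpha, fell by 0.77 ± 0.12 on its brightest probe and read 0.22 on another. Of 22 G1 genes 2 rose and 1 fell, where 4.26% of all genes rose and 5.41% fell. E2F2, an S-phase transcription factor, rose by 1.01 ± 0.15, from 8.98, 9.63 and 9.20 to 10.14, 10.48 and 10.22. The inhibitor CDKN2A rose by 0.85 ± 0.18, and the cyclin CCND2 fell by 0.64 ± 0.12. Of 34 replication-dependent histone genes 6 rose and none fell, where 4.26% of all genes rose, with a median of 0.28. In the deposited value table only 2 rose and the median was 0.01, with median scaling 1 rose, and without an intensity trend none was called. H4C12, H4C14, H2BC5 and H2AC18 rose by 0.79 to 1.10. Without LAV-BPIFB4 replicate 1 none of the histone genes was called and without LAV-BPIFB4 replicate 3 only 1, and without empty replicates 2 and 3 the risers were 1 and 3. Mitotic motors and centrosome genes fell in part. KIF18A, which sets chromosome alignment, fell by 0.86 ± 0.20. Of 37 centrosomal CEP genes 6 fell and none rose, where 5.41% of all genes fell. CEP350 fell by 0.77 ± 0.15 and CEP44 by 0.72 ± 0.14, with no CEP call under median scaling.

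Of 77 mitochondrial ribosomal protein genes 10 rose and 1 fell, where 4.26% of all genes rose and 5.41% fell, 65 read above 0 and the median was 0.25. MRPS18C went from 10.98, 10.90 and 11.16 to 11.73, 11.68 and 11.82, a rise of 0.73 ± 0.13 (limma adjusted p = 0.00234), and MRPL41 and MRPL20 rose by 0.68 ± 0.16 and 0.64 ± 0.13. Of 71 genes of the respiratory chain and ATP synthase 10 rose and 1 fell, 61 read above 0 and the median was 0.22. NDUFA13, NDUFS4 and ATP5MC1 rose by 0.57, 0.53 and 0.56, whereas NDUFS1, the largest subunit of complex I, fell by 0.98 ± 0.23. Without LAV-BPIFB4 replicates 1, 2 and 3 the respiratory chain had 0, 2 and 2 rises and the mitochondrial ribosome 3, 5 and 3, and without empty replicates 1 and 2 they had 4 and 3, and 5 and 5. Without WT-BPIFB4 replicate 1 they had 22 and 18, with median scaling 3 and 2, in the deposited values 4 and 4, and without an intensity trend 0 and 1. Both medians stayed above 0 in all 20 alternatives. Of 72 cytosolic ribosomal protein genes 6 rose and 1 fell, with a median of 0.03, RPL13 up by 0.48 ± 0.13 and RPL7 down by 0.46 ± 0.14. Among ribosome biogenesis genes MRTO4 and PES1, which act on the large subunit, rose by 0.81 ± 0.16 and 0.59 ± 0.15. NCL, nucleolin, fell by 0.36 ± 0.10, but read 0.001 with median scaling.

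The lowest change of all belonged to TULP4, an adaptor of a cullin ligase. Its brightest probe went from 8.24, 8.33 and 8.24 to 4.95, 5.61 and 5.37 (log2 change -2.96 ± 0.23), and 2 of 3 LAV-BPIFB4 arrays detected it. Its other kept probe read -0.12, so the probes of this gene disagree. PHC1, a polycomb repressor subunit, fell by 1.69 ± 0.31, from 6.84, 7.61 and 6.70 to 5.17, 5.47 and 5.43, and ATXN7L2 by 1.69 ± 0.29. DYNLT3, a dynein light chain, fell 2.83-fold, from 9.39, 9.04 and 9.13 to 7.67, 7.93 and 7.45 (limma adjusted p = 1.91e-05). KITLG, the ligand of the receptor KIT, fell by 1.11 ± 0.25, MANEA, a Golgi mannosidase, by 1.10 ± 0.26 and BACH2, a transcriptional repressor, by 1.08 ± 0.33. Their other probes read between -0.74 and -0.27 and were not called. DCUN1D4, a cullin neddylation factor, fell by 1.09 ± 0.16 on its brightest probe, with -0.14 on the other. DOCK11, an activator of small GTPases, and HGS, which sorts ubiquitinated cargo on endosomes, fell by 1.00 ± 0.14 each, with limma adjusted p of 0.000268 and 0.000384.

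The called genes of chromatin, deubiquitinase and traffic lists were mostly falls, beside 5.41% of all genes that fell. Of 25 polycomb and trithorax genes 3 fell and none rose, RBBP7 by 0.73 ± 0.14 and BMI1 by 0.45 ± 0.12 besides PHC1. Of 20 JmjC genes, which encode oxygen-dependent demethylases and hydroxylases, 4 fell and none rose. JMJD6 went from 7.38, 7.50 and 7.52 to 6.50, 6.61 and 6.46, KDM3A fell by 0.93 ± 0.23 and KDM5B by 0.81 ± 0.14. Of 44 deubiquitinases of the USP and OTU families 6 fell, VCPIP1 by 1.13 ± 0.23 and USP37 by 0.81 ± 0.17, and USP30, which opposes mitophagy, rose by 0.78 ± 0.18. Of 76 SNARE and Golgi traffic genes 6 fell and none rose. GOSR1, a Golgi SNARE, fell by 1.14 ± 0.22 with its other probe at -0.57 and not called, and TRAPPC11 fell by 0.90 ± 0.19 with both other probes called, at -0.79 and -0.91. Of 29 nuclear pore genes NUP160 and NUP107 fell, by 0.76 ± 0.15 and 0.41 ± 0.12. The medians of the polycomb, JmjC, SNARE and nuclear pore lists changed sign with median scaling, from -0.20, -0.05, -0.03 and -0.17 to 0.03, 0.02, 0.09 and 0.01. Under that scaling the falls were 1 in the polycomb, 0 in the JmjC, 1 in the deubiquitinase, 1 in the SNARE and 0 in the nuclear pore list. Of 307 ZNF genes 15 rose and 7 fell, with a median of 0.00, among them ZNF268 up by 1.29 ± 0.28, ZNF239 up by 0.94 ± 0.20 and ZNF184 down by 1.35 ± 0.29.

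The called genes of iron, sterol and glucose metabolism were falls, beside 5.41% of all genes, and none of these lists had a call with median scaling, where the sterol and glycolysis medians went from -0.11 to 0.05 and from -0.21 to 0.04. TFRC, the transferrin receptor, went from 12.41, 12.78 and 12.47 to 11.38, 12.11 and 11.81 (log2 change -0.79 ± 0.15, limma adjusted p = 0.00481), the single call among 11 iron genes. Of 22 sterol synthesis genes 4 fell and none rose, namely IDI1 by 0.76 ± 0.17, INSIG2 by 0.67 ± 0.20, INSIG1 by 0.63 ± 0.15 and SQLE by 0.42 ± 0.11. Of 35 glycolysis and hypoxia genes 3 fell and none rose: KDM3A, BNIP3L by 0.79 ± 0.24 with overlapping groups, and LDHB by 0.32 ± 0.10, which read 0.047 with median scaling. Autophagy and lysosome genes had 2 rises and 2 falls in each of lists of 34 and 37. This is near the 4.26% up and 5.41% down of all genes, and neither list had a call with median scaling. ATG5 fell by 0.80 ± 0.23 and ATG4B rose by 0.72 ± 0.17; LIPA, the lysosomal acid lipase, fell by 0.65 ± 0.12 and LAMP1 rose by 0.42 ± 0.12.

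Of 24 tested genes of the nitric oxide synthase pathway and angiogenesis none passed, with a median of -0.17, and the smallest p-values were those of AKT1 at -0.36 ± 0.12 (limma adjusted p = 0.0627) and DDAH1 at -0.51 ± 0.17 (limma adjusted p = 0.0711). Without adjustment 5 of the 24 had a p under 0.05. NOS3, the endothelial nitric oxide synthase, was not detected on any of the 6 arrays. Of the BPI fold family only PLTP, a plasma lipid transfer protein, was tested, at 0.25 ± 0.16. Of 17 ID and TGF-beta target genes ID4 fell by 1.06 ± 0.28, detected on 1 of 3 LAV-BPIFB4 arrays, and the BMP receptor BMPR2 fell by 0.84 ± 0.18 with a further probe called. Of 6 genes for 14-3-3 proteins, adaptors that bind phosphorylated clients, YWHAQ alone was called, at -0.34 ± 0.10, and read 0.026 with median scaling. None of 12 NF-kappaB genes was called, NFKBIA reading 0.34 ± 0.13 and REL -0.71 ± 0.28, and 3 of them had an unadjusted p under 0.05. Of 17 interferon genes ISG20 fell by 0.77 ± 0.19 and IRF3 rose by 0.60 ± 0.17. MCL1 rose by 0.60 ± 0.15, with -0.31 on its other probe.

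**Figure D4:**
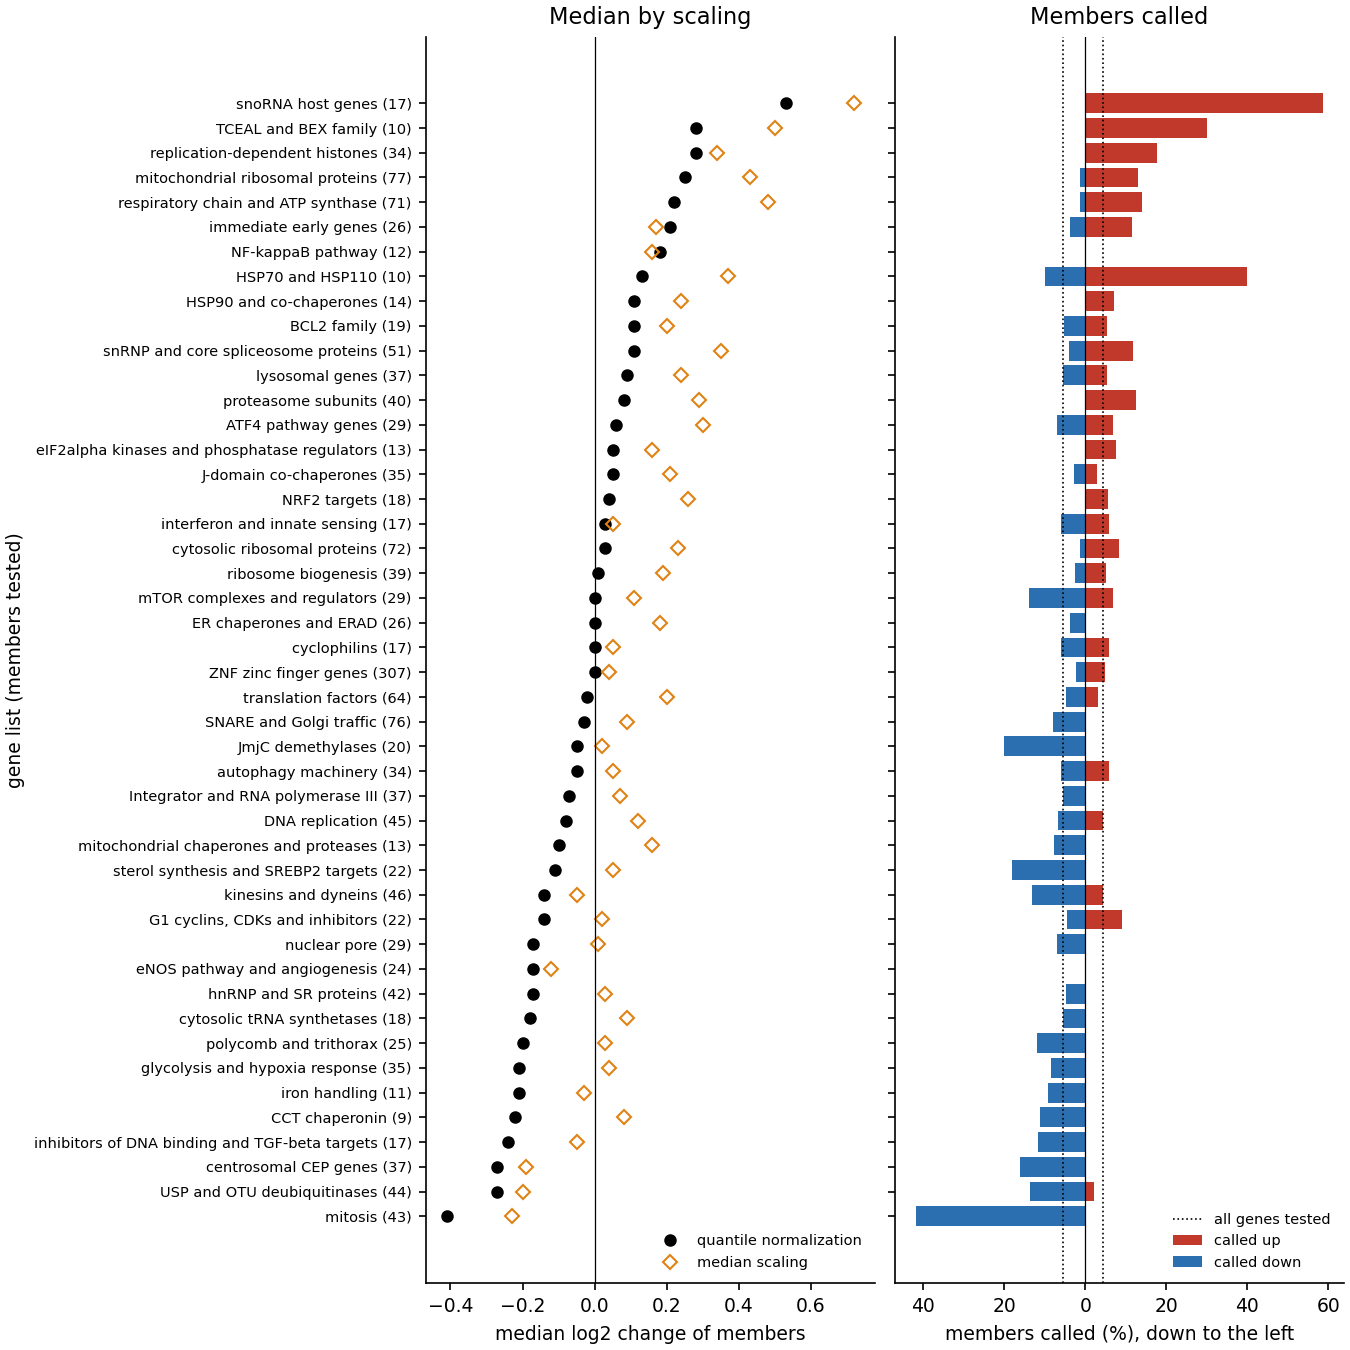
Gene lists described here with at least 9 members tested (vertical axis, number tested in brackets). The left panel gives the median log2 change (LAV-BPIFB4 minus empty plasmid) with quantile normalization (filled) and with median scaling (open), and the right panel the percentage of members called up (right) and down (left), with dotted lines for all genes. The snoRNA host genes lie highest at 0.53 and mitosis lowest at -0.41, and median scaling moves most lists upwards.

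Of the 15 detected kidney and neural-like genes by which HEK293 is known, 3 were called. EYA1, a kidney and ear developmental regulator, fell by 1.03 ± 0.21, from 7.45, 7.84 and 7.84 to 6.68, 6.77 and 6.60. VIM, vimentin, fell by 0.62 ± 0.10, from 12.97, 13.06 and 12.91 to 12.36, 12.33 and 12.39, and its other probe by 0.67. HOXD11 rose by 0.46 ± 0.14. CD68, a lysosomal protein used as a macrophage marker, rose by 1.10 ± 0.18 on its brightest probe, from 8.22, 8.40 and 8.60 to 9.92, 9.13 and 9.46, with -0.03 on another. CD14 is the only other blood marker of 7 that was detected on at least 3 arrays, and 4 of the 7 were at 0 of 6.

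Direction went with the length of the gene, a relation noticed in these data. Among 10633 protein-coding genes, the median genomic span was 12.2 kb for the 369 that rose, 60.8 kb for the 604 that fell and 30.4 kb for all. Genes were then split into 5 equal bins of length. In the bin of genes up to 9.5 kb 7.57% rose and 1.03% fell, and in the bin from 91.2 kb upwards 1.18% rose and 9.64% fell. The median change passed from 0.16 through 0.06, -0.03 and -0.12 to -0.20 over the bins. The difference between the shortest and the longest bin was 0.36, and 0.18 to 0.40 over the alternatives, 0.40 with median scaling. It was present in each quartile of expression level, from 0.07 against -0.16 in the lowest to 0.15 against -0.20 in the highest. On single arrays, shortest minus longest was -0.21, -0.23 and -0.15 with the empty plasmid and 0.15, 0.15 and 0.16 with LAV-BPIFB4. The groups do not overlap, and no test is given because the relation was noticed in these arrays. Several lists lie at the ends of this scale. The median span was 0.512 kb for the histones, 8.67 kb for mitochondrial ribosomal proteins, 59.5 kb for the deubiquitinases and 79 kb for the CEP genes, and 34.1 kb for mitosis, close to that of all genes. RNA quality was not available for these samples here, and its part in this relation was not tested.

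**Figure D5:**
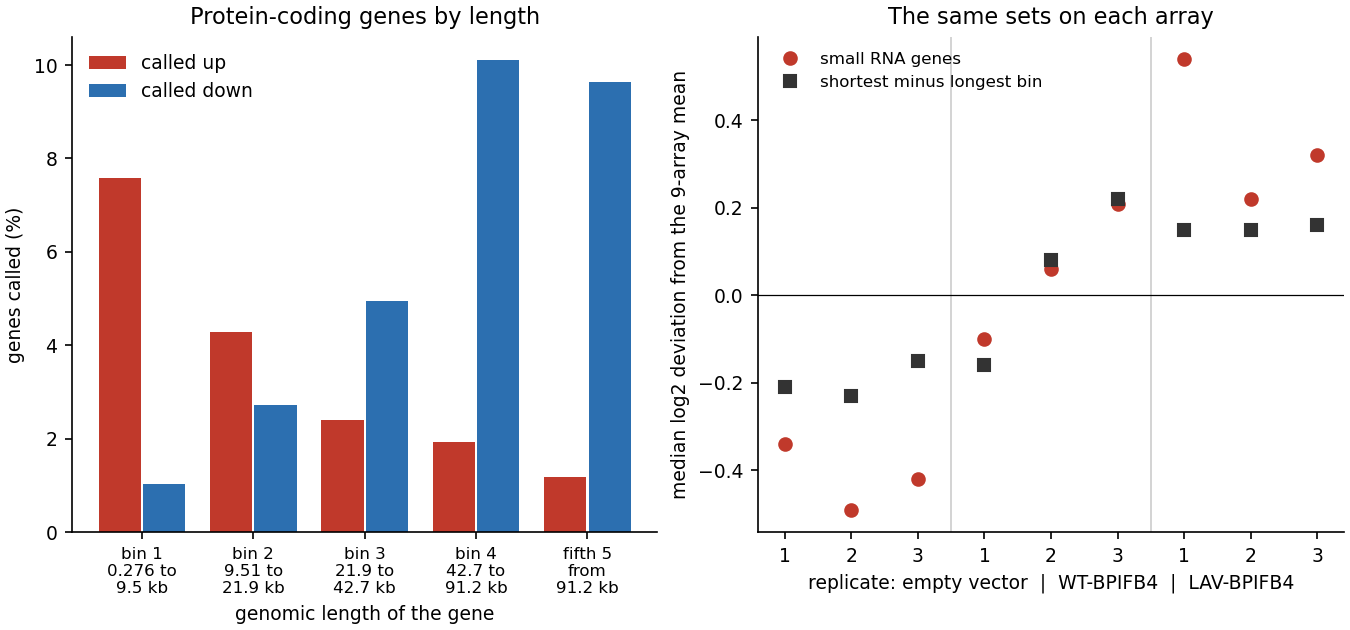
Left, percentage of protein-coding genes called up or down (vertical axis) in 5 equal bins of genomic length (horizontal axis, kb). Right, median log2 deviation from the mean of the 9 arrays (vertical axis) on each array (horizontal axis). Circles give the small RNA genes, with the ribosomal RNA genes included, and squares the shortest minus the longest bin. All empty plasmid arrays lie below 0 and all LAV-BPIFB4 arrays above 0, with WT-BPIFB4 replicate 1 below 0 on both.

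The arrays of WT-BPIFB4 differed among themselves. The small RNA deviation was -0.10, 0.06 and 0.21 on WT-BPIFB4 replicates 1, 2 and 3, and shortest minus longest was -0.16, 0.08 and 0.22. For gene length, replicate 1 lay within the range of the empty arrays and replicate 3 above all LAV-BPIFB4 arrays. Against the same 3 empty arrays, 215 probes (1.12%) and 148 genes (1.31%) were called with WT-BPIFB4, and these controls are shared, so no overlap is given. Side by side, the HSP70 and HSP110 list had 4 rises with each form. Mitosis had 18 falls with LAV-BPIFB4 and 1 with WT-BPIFB4, with medians of -0.41 and -0.29. Compared directly, LAV-BPIFB4 and WT-BPIFB4 differed at no probe by limma, with 901 of 19279 probes at an unadjusted p under 0.05 and a smallest adjusted p of 0.508, so none of the changes above is shown to be particular to the variant. With 3 arrays a group, small differences between the forms may lie under what this comparison can detect.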

How the data were processed

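Total RNA from 9 HEK293T samples was hybridised to Illumina bead arrays. The deposited non-normalized table holds the signal intensity and detection p-value of each probe, exported with BeadStudio per the submitters' processing notes (version not given in the sources used here). The deposited value table holds signal intensities whose normalization is not stated, and its log2 served as an alternative. It matched the empty and WT-BPIFB4 arrays, whereas its LAV-BPIFB4 columns matched no array exactly. Intensities were background-corrected with normexp from the detection p-values (offset 16) and quantile-normalized over the 9 arrays with limma 3.58.1 (R 4.3.3, function neqc). Group means were fitted with limma (lmFit, eBayes with intensity trend) over 19279 probes with detection p under 0.05 on at least 3 of the 6 arrays compared, with Benjamini-Hochberg adjustment. Python 3.11.15, pandas 2.3.3 and scipy 1.17.1 were used for summaries. Of 47310 probes 30105 had 1 symbol, 8 several and 17197 none, and symbols were updated through RefSeq GRCh38.p14. A gene is its kept probe with the highest mean. A fold written as at least sets the mean of the detecting group against the dimmest signal above background.

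Named were the 15 highest and 15 lowest called genes without overlap, up to 4 called members of each list (2 uncalled where none was), up to 5 genes detected in 1 group only in each direction, the 5 smallest adjusted p in each direction, and a fixed set of stress, transgene and endothelial genes. Members and lists were chosen with earlier results of these data known. On simulated data for the comparison of LAV-BPIFB4 with the empty plasmid over 19279 probes, the fit recovered 22.4%, 61.2% and 97% of changes of 1.5, 2 and 4-fold, and 1.64% of calls were false. Only 67, 67 and 66 probes were changed by these folds, and noise was drawn independently for each probe. Deviations shared across an array were not simulated, so the 1.64% does not give the share of false calls in the real data. The number of arrays, 3 a group, limits the precision. A gene and the list built on it are not reported here.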

Additional observations from a re-analysis of the deposited data

How the results depend on the processing

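Beside 1650 probes called (778 up, 872 down), 250 were called with median scaling (210 and 40), 933 without a filter on detection (453 and 480), 397 without an intensity trend (196 and 201), 962 with the deposited value table (483 and 479), 3082 with array weights (1466 and 1616) and 2777 with a replicate block (1325 and 1452). With the 6 arrays alone 1315 probes fell. When 1 array was left out the calls ranged from 485 to 2602, the rises from 222 to 1224 and the falls from 245 to 1378. The extremes were 485 calls without LAV-BPIFB4 replicate 3, 512 without replicate 1, and 2602 without WT-BPIFB4 replicate 1. The cause was not tested. Leaving out empty replicates 1 and 3 gave 860 and 882, and LAV-BPIFB4 replicate 2 gave 836. NCL at 0.001, LDHB at 0.047 and YWHAQ at 0.026 changed sign with median scaling. Of 163 named called genes 35 were called in each of the 20 alternatives that kept their probe, HSPA6, HSPA7, HSPA1A, HSPA1B, DNAJB1, BAG3 and TCEAL7 among them. Of 57 lists 21 had a median of opposite sign with median scaling. The labels number the replicates, but deviations of same-numbered arrays correlated at 0.118, 0.195 and 0.009 and empty replicate 3 correlated best with LAV-BPIFB4 replicate 1, so the numbers were not taken to pair the arrays, and the replicate block lost none of the named calls. Genes near background have the least certain fold, and 3 arrays a group limit small changes.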

Other observations

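Called genes were spread unevenly over the chromosomes. On chromosome 19, the most gene-dense, 55 of 746 genes rose (7.37%) and 3 fell (0.402%), with a median log2 change of 0.15. On chromosome 18, 2 of 159 rose (1.26%) and 18 fell (11.3%), with a median of -0.21, and on chromosome 4, 9 of 397 rose (2.27%) and 41 fell (10.3%), with a median of -0.17. Gene length differs between chromosomes and its part in these values was not tested.

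Among 202 long non-coding RNA genes 16 rose (7.92%) and 1 fell, against 369 rises and 604 falls of 10633 protein-coding genes. This is not separate from the snoRNA host genes given above, of which 10 of 17 rose and only 1 is protein-coding. The remaining long non-coding RNA genes were not counted apart. Different probes of a gene mostly shared a sign. Of 136 further probes of genes that rose, 111 had the same sign and 30 were called the same way, and of 275 further probes of genes that fell, 226 had the same sign and 65 were called the same way.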
